A study of Caenorhabditis elegans with 12 samples.

Results

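The endoderm and mesoderm of Caenorhabditis elegans are laid down by a short cascade of transcription factor genes, and 10 of them were listed for description: skn-1, med-1, med-2, end-1, end-3, elt-7, elt-2, tbx-35, ceh-51 and pha-4. They were found by name in the annotation that accompanies the gene counts. Of the 31753 gene features in that annotation, 28096 name 1 gene, and 9 of these are members of the cascade. The remaining gene, skn-1, shares its feature with the non-coding RNA T19E7.27, which lies inside it, so the values given for skn-1 are those of the joint feature and are not counted among the 9.

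In the early embryo the blastomere EMS divides into MS, which makes mesoderm including much of the pharynx and body muscle, and E, which makes the whole intestine. Maternal SKN-1, a bZIP-like factor, switches on the GATA factor genes med-1 and med-2 in EMS. In E these act with SKN-1 and Wnt signalling through the GATA factor genes end-1 and end-3, which are followed by elt-7 and elt-2, the GATA factor genes of gut differentiation. In MS the MED factors act on the T-box gene tbx-35 and the homeobox gene ceh-51, and pha-4, a FoxA gene, specifies pharyngeal identity and is also expressed in the gut.

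The samples were whole early embryos, most of them from the zygote to the 24-cell stage by their labels, in 6 groups of 2 libraries. N2 is the wild-type strain. In 4 groups N2 worms were fed bacteria making double-stranded RNA (RNAi) against pos-1 or mex-5, which encode CCCH zinc finger RNA-binding proteins, or against gld-2 or gld-3, which encode a cytoplasmic poly(A) polymerase and its partner. In the sixth group N2 carried the mex-6 allele pk440, mex-6 being the close relative of mex-5. N2 feeding is described with OP50 bacteria and RNAi feeding with HT115(DE3), and no RNAi group fed a control RNA was analysed here, so depletion and food cannot be told apart in comparisons with N2. Nothing in the labels says whether replicates were separate cultures, so p-values measure only the spread between these libraries.

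PAT-seq sequences the 3' ends of polyadenylated RNA and measures the poly(A) tail of the same reads. Gene reads per library ran from 4613974 to 10229871, of which 35.4% to 56.7% were ribosomal RNA, and 220 to 1363 reads per library fell on the 9 members. Each targeted RNA was below N2 in its own group, at 15.5% of N2 for pos-1, 8.46% for gld-3, 44.3% for gld-2, 8.07% for mex-5 and 2.36% for mex-6 in the allele. The mex-5 RNAi libraries also held less mex-6 (19.4 CPM against 224 in N2, log2 change -3.51 ± 0.32 (SE), adjusted p = 1.57e-05), so that group was low in both RNAs. The 10 early embryo genes listed as stage markers, among them pos-1, mex-5 and nos-2, had reads in all 12 libraries and together reached 3490 to 3923 CPM in N2. They summed to 2680.1 to 2700.3 CPM in pos-1 RNAi, 2954 to 4073 in gld-3 RNAi, 1828 to 1839 in gld-2 RNAi, 1932 to 2510.0 in mex-5 RNAi and 2786 to 3198 in mex-6(pk440), and 1, 0, 6, 4 and 1 of the 10 were called lower in these groups, counting pos-1, mex-5 and mex-6 where they were the targets. The skn-1 feature is itself among the 10 and among the 6 called lower in gld-2 RNAi. Over all genes, 7.52% were called lower in pos-1 RNAi, 4.02% in gld-3 RNAi, 12.8% in gld-2 RNAi and 12.5% in mex-5 RNAi. In mex-6(pk440) 0.0213% were called in either direction. The part of stage in the members' values was not tested. CPM is the count of a gene scaled to the depth of its library, here all gene reads adjusted by TMM factors.

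On the ce10 build, 5 of the members lie on chromosome V. These are elt-7 (4770700 to 4772872), end-1 (13985122 to 13986985), end-3 (14014686 to 14015835), ceh-51 (18874104 to 18875878) and pha-4 (20753021 to 20759649), all on the plus strand. On chromosome X are elt-2 (10481180 to 10483125) and med-1 (12430542 to 12431066), and on chromosome III is med-2 (6884449 to 6884973), all plus. The minus-strand genes are tbx-35 on chromosome II (5524183 to 5525362) and the skn-1 feature on chromosome IV (5651753 to 5660373). The med-1 and med-2 features are both 525 bp long and the genes are near-identical copies, so how their reads were divided is uncertain. Deposited poly(A) peaks, the positions where 3' ends pile up, were assigned to 7 of the 10 genes, and med-1, end-3 and tbx-35 had none.

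In pos-1 RNAi embryos the gut genes end-1, end-3, elt-7 and elt-2 fell to between 4.62% and 19.8% of N2 in fitted level and the MS gene ceh-51 to 28.6%, while pha-4 and the skn-1 feature were not called. In mex-5 RNAi embryos the 2 called members were ceh-51 and pha-4, both lower. No gut gene was called there, and their fitted levels were 77.4% of N2 (end-1), 43.1% (end-3), 60.5% (elt-7) and 42.6% (elt-2). The other 3 groups gave no call among the 7 members that passed the low-count filter, which left out med-1 and tbx-35. A gene was called when the Benjamini-Hochberg adjusted p of edgeR's quasi-likelihood test, taken over 9403 genes, was under 0.05. Statements that the libraries of a group lie below or above those of another describe order only. With 2 libraries per group such order can arise readily without a change, and its share over all genes is not given here. It is therefore not read as a result where a gene was not called. Since these are whole embryos, fewer cells of a type and less RNA per cell cannot be told apart in any of these values.

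**Figure D1:**
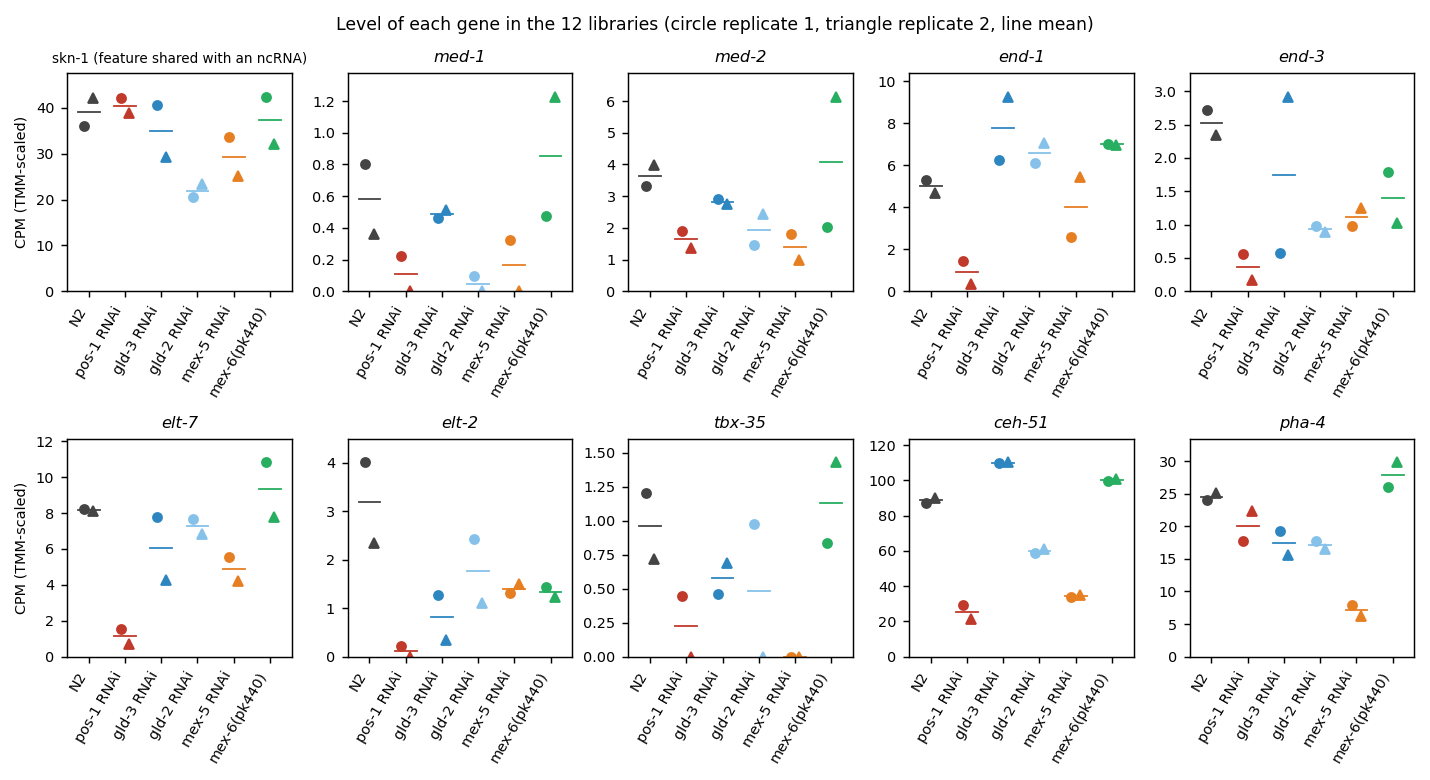
Level of each gene in the 12 libraries, in CPM on linear axes that start at 0 and differ between panels. Circles are replicate 1, triangles replicate 2 and lines the mean of both. Both pos-1 RNAi libraries lie below all 10 others for end-1, end-3, elt-7, elt-2 and ceh-51, and both mex-5 RNAi libraries below all 10 others for pha-4.

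RNA of the skn-1 feature, at the maternal start of the cascade, was detected in all 12 libraries. The SKN-1 protein was not measured, and maternal and zygotic RNA were not told apart. The skn-1 feature stood at 35.9 and 42.2 CPM in N2, at 42.0 and 39.0 in pos-1 RNAi, at 40.5 and 29.4 in gld-3 RNAi and at 42.4 and 32.1 in mex-6(pk440). It stood at 33.6 and 25.1 CPM in mex-5 RNAi and at 20.5 and 23.4 in gld-2 RNAi. Both gld-2 RNAi libraries were thus the lowest of the 12, below both N2 libraries. The log2 change in gld-2 RNAi was -0.83 ± 0.26 (SE; edgeR adjusted p = 0.0296), against a background of 12.8% of genes called lower there. This call was lost when any 1 of the 4 libraries was left out (adjusted p = 0.0626 to 0.251) and against mex-6(pk440) in place of N2 (0.0505). Of 9 oocyte genes 8 were also called lower in gld-2 RNAi, where they summed to 364 to 375 CPM against 1144 to 1176 in N2, and their part in the fall of the skn-1 feature was not tested. In pos-1 RNAi 4 of the 9 oocyte genes were called lower, and 3 were called higher in mex-5 RNAi and 2 in gld-3 RNAi. Over all genes, 7.52% were called lower in pos-1 RNAi, and 18.4% higher in mex-5 RNAi and 4.06% in gld-3 RNAi. In pos-1 RNAi the skn-1 feature changed by 0.05 ± 0.25 (adjusted p = 0.917), in gld-3 RNAi by -0.15 ± 0.25 (0.741), in mex-5 RNAi by -0.41 ± 0.26 (0.252) and in mex-6(pk440) by -0.06 ± 0.25 (0.969).

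The first zygotic genes of the cascade were near the limit of detection. For med-1 the reads were 8 and 2 in N2, 2 and 0 in pos-1 RNAi, 4 and 3 in gld-3 RNAi, 1 and 0 in gld-2 RNAi, 2 and 0 in mex-5 RNAi and 4 and 6 in mex-6(pk440). These counts were not tested. As levels, pos-1, gld-2 and mex-5 RNAi lay below both N2 libraries, by a few reads, and gld-3 RNAi and mex-6(pk440) overlapped N2. For med-2 the levels were 3.31 and 3.97 CPM in N2, 1.90 and 1.38 in pos-1 RNAi, 2.90 and 2.75 in gld-3 RNAi, 1.46 and 2.43 in gld-2 RNAi, 1.79 and 0.99 in mex-5 RNAi and 2.03 and 6.14 in mex-6(pk440). The values of med-2 in pos-1, gld-3, gld-2 and mex-5 RNAi lay below both N2 values, and no comparison called it. Its log2 changes against N2 were -1.10 ± 0.52 in pos-1 RNAi (edgeR adjusted p = 0.194), -1.30 ± 0.56 in mex-5 RNAi (0.0972), -0.97 ± 0.52 in gld-2 RNAi (0.18), -0.35 ± 0.49 in gld-3 RNAi (0.694) and 0.10 ± 0.48 in mex-6(pk440) (0.973).

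For the endoderm specification gene end-1, the pos-1 RNAi libraries held 13 and 2 reads, where the N2 libraries held 53 and 26. As levels these were 1.45 and 0.34 CPM against 5.32 and 4.69. The other groups stood at 6.26 and 9.27 CPM (gld-3 RNAi), 6.12 and 7.07 (gld-2 RNAi), 2.61 and 5.47 (mex-5 RNAi) and 7.03 and 6.96 (mex-6(pk440)). Only pos-1 RNAi lay wholly below N2, and in gld-3 RNAi, gld-2 RNAi and mex-6(pk440) both libraries lay above both N2 libraries. The log2 change in pos-1 RNAi was -2.34 ± 0.51 (edgeR adjusted p = 0.00994), a called fall that was lost when the 4 libraries were fitted alone (adjusted p = 0.0655) and without pos-1 RNAi replicate 2 (-1.70, adjusted p = 0.0881). Leaving out replicate 1 of that group gave -3.74.

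Its neighbour and partner end-3 was lower still, with 5 and 1 reads in pos-1 RNAi against 27 and 13 in N2. The levels were 0.56 and 0.17 CPM against 2.71 and 2.34. In gld-3 RNAi end-3 stood at 0.58 and 2.92 CPM, in gld-2 RNAi at 0.97 and 0.88, in mex-5 RNAi at 0.98 and 1.24 and in mex-6(pk440) at 1.79 and 1.02, so every library outside N2 but 1 of gld-3 RNAi lay below both N2 libraries. The fall in pos-1 RNAi was -2.62 ± 0.75 on the log2 scale (edgeR adjusted p = 0.0351). It is the weakest of the 5 calls: it was lost in the fit of 4 libraries (adjusted p = 0.0607), when any 1 of the 4 libraries was left out (0.0795 to 0.21, with -3.69 when pos-1 RNAi replicate 1 was left out) and against mex-6(pk440) in place of N2 (-1.83, 0.244).

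Of the gut differentiation factors, elt-7 had 14 and 4 reads in pos-1 RNAi against 82 and 45 in N2, or 1.56 and 0.69 CPM against 8.23 and 8.12. It stood at 7.76 and 4.29 CPM in gld-3 RNAi, 7.68 and 6.85 in gld-2 RNAi, 5.54 and 4.22 in mex-5 RNAi and 10.8 and 7.78 in mex-6(pk440). The pos-1 RNAi values were far below all others. The log2 change was -2.76 ± 0.43 (edgeR adjusted p = 0.00219), and the call held under every alternative run (adjusted p from 4.42e-07 to 0.0443). Leaving out replicate 1 of that group gave -3.47 and leaving out replicate 2 gave -2.29.

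For elt-2, which keeps the gut fate on through life, the pos-1 RNAi libraries held 2 and 0 reads against 40 and 13 in N2. The summed reads give a rate of 0.0396 of N2, with an exact 95% counting interval of 0.0047 to 0.15. Its levels elsewhere were 4.02 and 2.34 CPM in N2, 1.27 and 0.34 in gld-3 RNAi, 2.43 and 1.10 in gld-2 RNAi, 1.30 and 1.49 in mex-5 RNAi and 1.43 and 1.23 in mex-6(pk440). Every group but gld-2 RNAi thus lay below both N2 values, the allele included, and pos-1 RNAi lay below all. The fitted log2 change of -4.44 ± 0.83 in pos-1 RNAi (edgeR adjusted p = 0.00463) depends on how so few reads are smoothed, and it was -7.45 without pos-1 RNAi replicate 1. With mex-6(pk440) in place of N2 it was -3.17, and the call was lost (adjusted p = 0.0812).

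In the MS branch, tbx-35 had no read in either mex-5 RNAi library and 12 and 4 reads in N2. A count of 0 allows up to 3 reads, or 0.489 and 0.745 CPM in these libraries, and the second N2 library stood at 0.721 CPM, so a difference was not detectable library by library. The exact 95% counting interval of the summed rate against N2 ran from 0 to 0.395. The other groups had 4 and 0 reads (pos-1 RNAi), 4 and 4 (gld-3 RNAi), 10 and 0 (gld-2 RNAi) and 7 and 7 (mex-6(pk440)). Intervals and floors cover counting error only, since reads are not independent molecules.

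The deepest member was ceh-51, whose product acts with TBX-35 in MS. It stood at 87.3 and 90.0 CPM in N2, 28.99 and 21.5 in pos-1 RNAi and 33.9 and 35.03 in mex-5 RNAi, from 125 to 869 reads in each of these libraries. In gld-3 RNAi it stood at 109.6 and 110.4 CPM, in gld-2 RNAi at 58.6 and 61.2 and in mex-6(pk440) at 99.4 and 100.7. No group overlapped another. The log2 change against N2 was -1.80 ± 0.21 in pos-1 RNAi (edgeR adjusted p = 6.57e-04) and -1.36 ± 0.21 in mex-5 RNAi (3.68e-04), and both calls held under every alternative run. In gld-2 RNAi it was -0.57 ± 0.20 (adjusted p = 0.054), in gld-3 RNAi 0.31 ± 0.20 (0.352) and in mex-6(pk440) 0.18 ± 0.20 (0.849). Between the 2 groups depleted of the poly(A) polymerase complex, ceh-51 was higher in gld-3 than in gld-2 RNAi by 0.88 ± 0.20 (adjusted p = 0.0152), the 1 member called there where 4.46% of genes were called higher. That call was lost in the fit of 4 libraries and without gld-3 RNAi replicate 1, gld-2 RNAi replicate 1 or gld-2 RNAi replicate 2 (adjusted p = 0.0525 to 0.159).

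The pharyngeal gene pha-4 was lowest in mex-5 RNAi. It stood at 24.0 and 25.1 CPM in N2, 17.7 and 22.4 in pos-1 RNAi and 7.98 and 6.21 in mex-5 RNAi. In gld-3 RNAi it stood at 19.2 and 15.6 CPM, in gld-2 RNAi at 17.7 and 16.6 and in mex-6(pk440) at 25.99 and 29.9. Both mex-5 RNAi values were lower than every other. The log2 change in mex-5 RNAi was -1.77 ± 0.27 (edgeR adjusted p = 3.08e-04), a call that held under every alternative run. In pos-1 RNAi it was -0.29 ± 0.24 (adjusted p = 0.481), in gld-3 RNAi -0.49 ± 0.24 (0.222), in gld-2 RNAi -0.51 ± 0.25 (0.133) and in mex-6(pk440) 0.19 ± 0.24 (0.873).

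**Figure D2:**
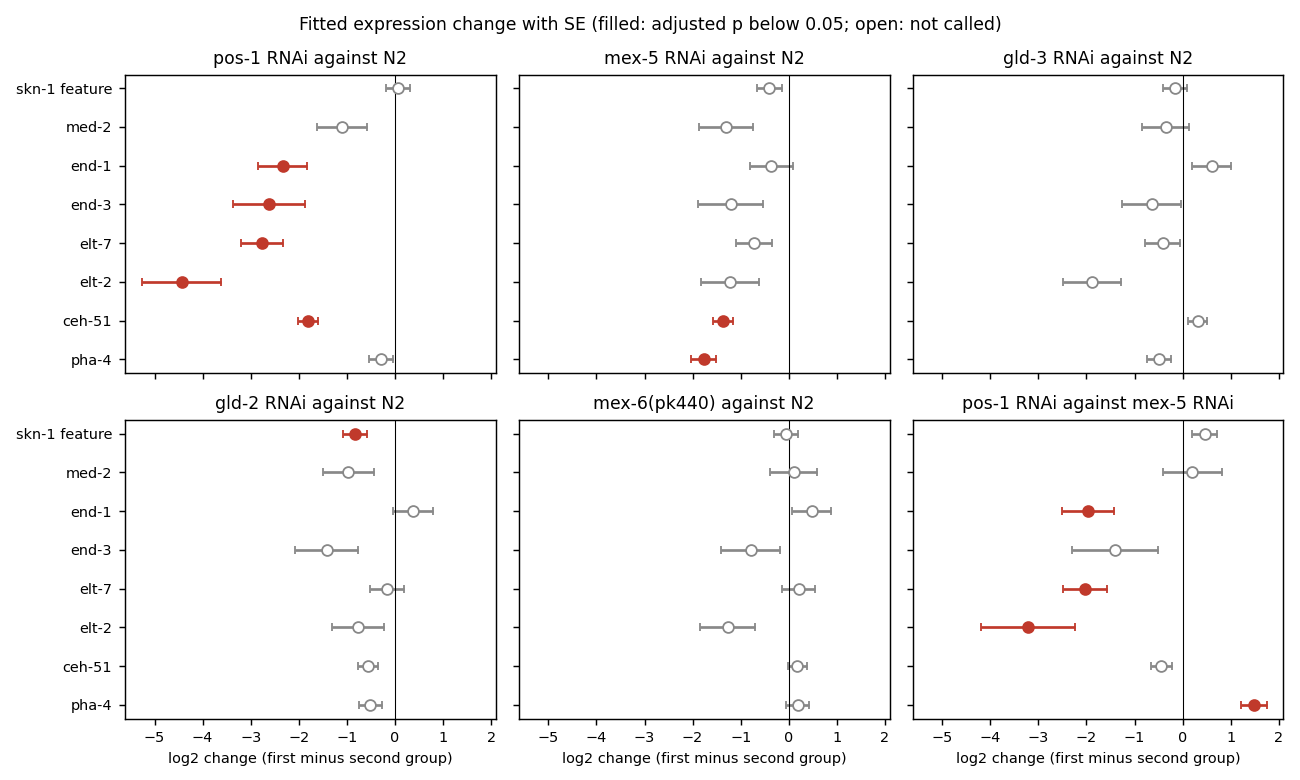
Fitted log2 change with its SE for the 7 tested members and the skn-1 feature, in the 5 comparisons with N2 and in pos-1 against mex-5 RNAi. Filled points have an adjusted p under 0.05 and open points do not. In pos-1 RNAi the 5 filled points run from -1.80 to -4.44, and in mex-5 RNAi they are ceh-51 at -1.36 and pha-4 at -1.77.

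Counted together, 5 of the 7 tested members fell in pos-1 RNAi, where 7.52% of all tested genes were called lower, and their median log2 change was -2.34 beside -0.09 over all genes. In mex-5 RNAi 2 of 7 fell against a background of 12.5%, with a median of -1.23 beside -0.04. There 3 members, med-2, ceh-51 and pha-4, had an unadjusted p under 0.05. The uncalled gut genes changed by -0.37 ± 0.45 (end-1), -1.21 ± 0.68 (end-3), -0.73 ± 0.38 (elt-7) and -1.23 ± 0.60 (elt-2), with edgeR adjusted p from 0.141 to 0.564. In gld-3 RNAi edgeR called 0 of 7 (background 8.08% in either direction) and DESeq2 also 0, while 1 member, elt-2 at -1.89 ± 0.60 (adjusted p = 0.0695), had an unadjusted p under 0.05. In gld-2 RNAi edgeR and DESeq2 both called 0 of 7, where 27.2% of genes were called, and 2 members, end-3 (-1.42 ± 0.65, adjusted p = 0.119) and ceh-51, had an unadjusted p under 0.05. In mex-6(pk440) both tools called 0 of 7 against 0.0213% of genes, and elt-2 alone (-1.27 ± 0.58, adjusted p = 0.536) had an unadjusted p under 0.05. The 5 comparisons share the N2 libraries. Since 2 of the 9 members were too shallow to be tested, these counts do not cover all members.

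The pos-1 and mex-5 RNAi groups were also compared with each other, which tests directly whether the members differ between them. The gut genes were lower in pos-1 RNAi: end-1 by -1.97 ± 0.54 (edgeR adjusted p = 0.0141), elt-7 by -2.04 ± 0.46 (0.00415) and elt-2 by -3.21 ± 0.98 (0.0242) on the log2 scale. In the opposite direction, pha-4 was higher in pos-1 RNAi by 1.48 ± 0.27 (adjusted p = 8.98e-04). These 3 lower and 1 higher calls of 7 stand beside backgrounds of 19.3% and 9.59% of genes. For ceh-51 the difference was -0.44 ± 0.21 (adjusted p = 0.141) and for end-3 -1.41 ± 0.89 (0.268), so neither was called. The pha-4 call held under every alternative run, whereas end-1 was lost without pos-1 RNAi replicate 2 or mex-5 RNAi replicate 2 (adjusted p = 0.0939 and 0.141), elt-7 without mex-5 RNAi replicate 1 (0.0574) and elt-2 without any of these 3 libraries (0.0772 to 0.11). Without pos-1 RNAi replicate 1 the differences of end-1 and elt-2 were -3.38 and -6.24.

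Against gld-3 RNAi, which was also fed HT115(DE3), pos-1 RNAi had lower end-1 (-2.95 ± 0.50, edgeR adjusted p = 0.0035), elt-7 (-2.35 ± 0.44, 0.00705) and ceh-51 (-2.12 ± 0.21, 6.6e-05). These are 3 of 7 members where 4% of genes were called lower, in a comparison with the same food on both sides by the labels. Neither end-3 (-1.98 ± 0.80, adjusted p = 0.232) nor elt-2 (-2.55 ± 1.00, 0.218) was called. With the 4 libraries fitted alone only ceh-51 was called, and end-1 and elt-7 had an adjusted p of 0.0588 and 0.0898. The elt-7 call was also lost without pos-1 RNAi replicate 2 (0.0947) or gld-3 RNAi replicate 1 (0.0712), and end-3 was called without gld-3 RNAi replicate 1 (adjusted p = 0.0455). Against mex-6(pk440), mex-5 RNAi had lower ceh-51 (-1.54 ± 0.21, edgeR adjusted p = 2.49e-04) and pha-4 (-1.96 ± 0.27, 2.47e-04), 2 of 7 where 6.25% of genes were called lower, and both calls held under every alternative run. Since mex-6(pk440) was not an RNAi group, the same food on both sides cannot be assumed there.

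Genes listed for terminal gut differentiation moved in both directions. In pos-1 RNAi 4 of 12 tested genes of this list fell, 1 rose and the median log2 change was -0.55. Over all genes, 7.52% were called lower there and 4.69% higher. Those with the smallest p were dve-1, a homeobox gene of the gut (-1.78 ± 0.26, edgeR adjusted p = 0.00173), vha-6, a gut proton pump subunit (-2.43 ± 0.47, 0.00578), ifb-2, an intestinal intermediate filament gene (-1.73 ± 0.36, 0.00853), and the innexin gene inx-12, which rose (0.79 ± 0.21, 0.0245). The only listed gene called higher there, inx-12, stood at 98.9 CPM against 57.1 in N2. With it the list summed to 184 and 208 CPM in pos-1 RNAi against 173 and 174 in N2. The sum was thus higher although the median change was negative, so it does not stand for the list as a whole. In mex-5 RNAi, where 18.4% of all genes were called higher and 12.5% lower, 6 of the 12 rose and 1 fell, with a median of 0.87. There pho-1, a gut acid phosphatase, reached 35.99 CPM against 2.26 in N2 (4.03 ± 0.34, edgeR adjusted p = 9.02e-06). With it ifb-2 (2.84 ± 0.33, 5.2e-05), nhx-2, a gut sodium-proton exchanger (2.50 ± 0.44, 8.88e-04), and vha-6 (2.17 ± 0.36, 6.83e-04) rose. Between the groups, 7 of the 12 were lower in pos-1 than in mex-5 RNAi and 0 higher, where 19.3% of all genes were called lower and 9.59% higher. In gld-2 RNAi 5 of 12 rose, where 14.4% of all genes were called higher, and 0 fell. Among these 5 was inx-12 (0.74 ± 0.21, edgeR adjusted p = 0.02). In gld-3 RNAi, where 4.06% of all genes were called higher and 4.02% lower, and in mex-6(pk440) edgeR called none of the 12.

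Markers of other tissues and stages moved beside these genes. The 12 yolk and adult intestine genes, known from the adult gut, summed to 331 and 517 CPM in N2 and to 101 and 35.5 in pos-1 RNAi, where 11 of 11 tested genes fell (median -2.52). Their only gene at 0 reads in a library was fat-7, in 1 of the pos-1 RNAi libraries. Adult gut also expresses elt-2 and elt-7, and the part of maternal tissue in their falls was not tested. The same sum was 369 in both mex-5 RNAi libraries, though 7 of 11 genes fell and 3 rose there. Over all genes, 7.52% were called lower in pos-1 RNAi, and 12.5% lower and 18.4% higher in mex-5 RNAi. Against mex-6(pk440), 4 of 11 genes of this list were higher and 2 lower in mex-5 RNAi, with a median log2 change of 0.05. Of 9403 genes 1959 were called there, 588 of them lower. Among the listed genes, mex-5 RNAi had more asp-1 (238 against 62.1 CPM) and asp-3 (46.5 against 8.16), aspartyl protease genes, and less acdh-1 (5.86 against 74.8). In the other RNAi groups acdh-1 was also low, at 5.78 CPM (pos-1), 5.51 (gld-3) and 14.9 (gld-2) against 65.2 in N2. The part of food in its level was not tested. The summed level of the yolk and adult intestine list was 175 and 158 CPM in gld-3 RNAi, 243 and 175 in mex-6(pk440) and 583 and 596 in gld-2 RNAi. Neither elt-7 nor elt-2 was called in these groups. In gld-3 RNAi both libraries of elt-7 and of elt-2 lay below both N2 libraries. In mex-6(pk440) those of elt-2 did and elt-7 overlapped N2, and in gld-2 RNAi those of elt-7 did and elt-2 overlapped N2.

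The late embryo and larval list, of genes known from later embryos and larvae, summed to 1162 and 1205 CPM in N2, 1502 and 1406 in pos-1 RNAi, 3206 and 3462 in mex-5 RNAi and 2236 and 2532 in gld-2 RNAi. In mex-5 RNAi 9 of 12 tested genes rose and 2 fell, led by the body muscle myosin gene myo-3 (2.67 ± 0.21, edgeR adjusted p = 5.71e-06), while in pos-1 RNAi 1 rose and 5 fell. The median log2 change in pos-1 RNAi was -0.89 although the sum was higher, with sqt-3 alone at 507 CPM against 302 in N2. The part of embryo age in the members' values was not tested. Sperm genes fell too, 17 of 31 in pos-1 RNAi, 24 in gld-3 RNAi and 28 in mex-5 RNAi, and their part was not tested. Over all genes, 7.52% were called lower in pos-1 RNAi, 4.02% in gld-3 RNAi and 12.5% in mex-5 RNAi. Called higher were 4.69% in pos-1 RNAi and 18.4% in mex-5 RNAi.

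**Figure D3:**
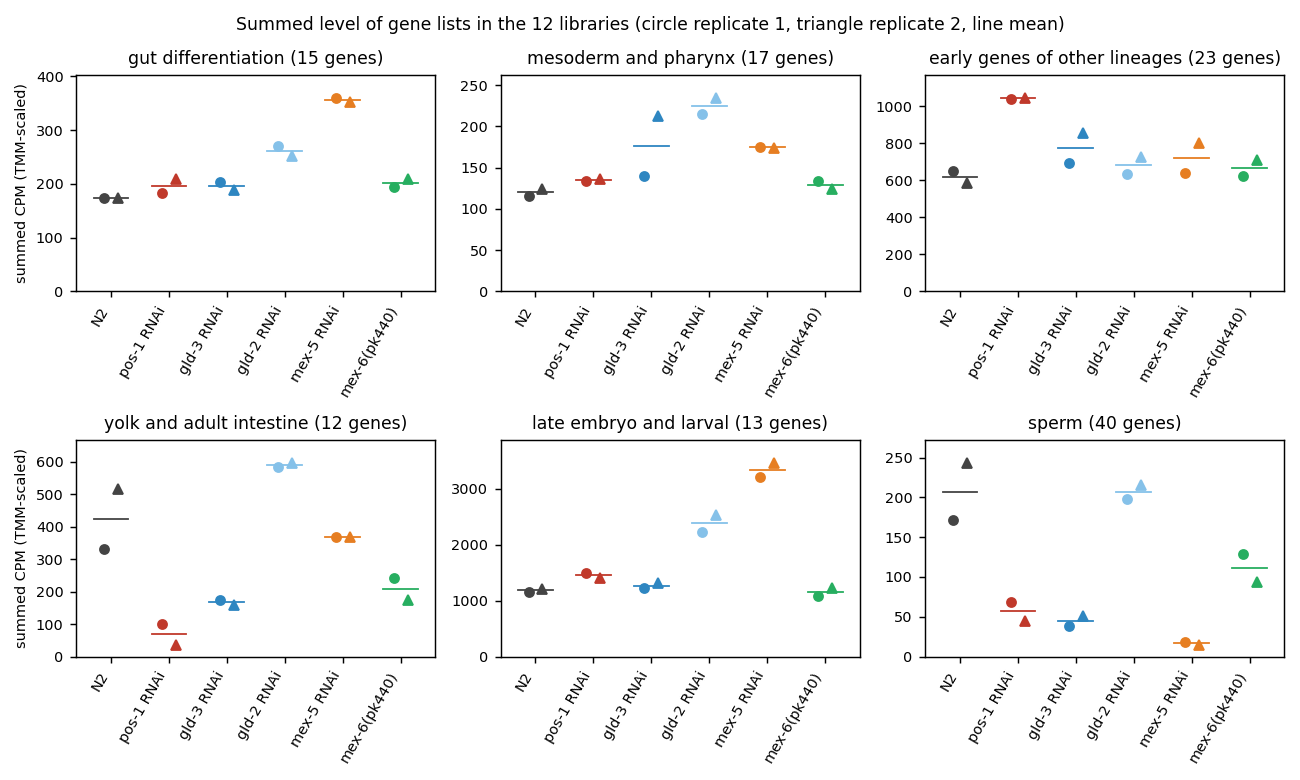
Summed level of 6 gene lists in the 12 libraries, in CPM on linear axes that start at 0 and differ between panels. Circles are replicate 1, triangles replicate 2 and lines the mean of both. Gut differentiation genes sum to 352 and 360 CPM in mex-5 RNAi against 173 and 174 in N2, and yolk and adult intestine genes to 35.5 and 101 CPM in pos-1 RNAi against 331 and 517.

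The list of mesoderm and pharynx genes also moved in both directions. In pos-1 RNAi 4 of 13 tested genes fell and 1 rose, the smallest p belonging to the pharyngeal myosin genes myo-2 (-2.69 ± 0.42, edgeR adjusted p = 0.00219) and myo-1 (-3.14 ± 0.56, 0.00386), the troponin gene tni-4 (-1.84 ± 0.34, 0.00468) and pax-3 (-1.62 ± 0.34, 0.00828), all lower. In mex-5 RNAi 5 rose and 2 fell, the body muscle factor gene hlh-1 rising (2.22 ± 0.34, adjusted p = 3.28e-04) with tnc-2 (1.97 ± 0.45, 0.00523), and ceh-27 (-2.27 ± 0.35, 3.96e-04) and pax-3 (-2.45 ± 0.39, 5.02e-04) falling. Compared directly, ceh-27 was higher in pos-1 than in mex-5 RNAi (2.88 ± 0.35, adjusted p = 4.94e-05) and myo-2 lower (-3.62 ± 0.41, 2.81e-05), with 3 of 13 higher and 7 lower in all. In gld-2 RNAi 7 of 13 rose and 0 fell. The shares of all genes called lower and higher were 7.52% and 4.69% in pos-1 RNAi and 12.5% and 18.4% in mex-5 RNAi. They were 12.8% and 14.4% in gld-2 RNAi, and 19.3% and 9.59% in pos-1 against mex-5 RNAi.

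The sdz genes, named as zygotic genes that depend on SKN-1, gave 0 higher and 2 lower of 18 in pos-1 RNAi, sdz-27 (-1.61 ± 0.36, edgeR adjusted p = 0.011) and sdz-13 (-2.01 ± 0.57, 0.0348). In mex-5 RNAi 7 of 18 fell and 2 rose, with sdz-21 (-1.62 ± 0.25, adjusted p = 4.05e-04), sdz-32 (-2.72 ± 0.51, 0.00147), sdz-38 (-2.61 ± 0.60, 0.00554) and sdz-13 (0.411 against 3.22 CPM, 0.00608) lower. In gld-2 RNAi 5 fell and 0 rose, in gld-3 RNAi 1 fell, and in mex-6(pk440) none of 18 was called. Over all genes, 7.52% were called lower in pos-1 RNAi, 12.5% in mex-5 RNAi, 12.8% in gld-2 RNAi and 4.02% in gld-3 RNAi. The counts in pos-1 and gld-3 RNAi were thus close to background.

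Of the maternal regulators that feed into EMS, 1 of 17 was called in pos-1 RNAi, near the 4.69% of all genes called higher there. It was mom-4, a kinase of the Wnt-linked MAPK input, which rose (0.99 ± 0.21, edgeR adjusted p = 0.00853). In mex-5 RNAi 4 of 17 fell and 0 rose: oma-1 (-0.77 ± 0.19, adjusted p = 0.00816), spn-4 (-0.79 ± 0.21, 0.0122), pie-1 (-0.80 ± 0.23, 0.0163) and the Wnt receptor gene mom-5 (-0.70 ± 0.21, 0.022). The summed level of the 17 was 2409 to 2707 CPM in N2, 2374 to 2670 in pos-1 RNAi and 2138 to 2183 in mex-5 RNAi. In gld-2 RNAi, where the skn-1 feature was called lower, 6 of the 17 fell and 0 rose, among them spn-4 (-1.67 ± 0.22, adjusted p = 3.08e-04) and mom-2, the Wnt ligand gene (-1.46 ± 0.22, 6.88e-04). The sum there was 1660.4 to 1780.1 CPM. Over all genes, 12.5% were called lower in mex-5 RNAi and 12.8% in gld-2 RNAi. Of the 17, pie-1, oma-1 and glp-1 are also among the stage markers, so the 2 lists are not independent.

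Early genes of other lineages had a higher sum in pos-1 RNAi. They reached 1038 and 1045 CPM in pos-1 RNAi against 647 and 584 in N2, with ceh-32 alone at 212 CPM against 65.7. There 5 of 21 rose and 2 fell, where 4.69% of all genes were called higher and 7.52% lower. The median log2 change of the list was 0.12 beside -0.09 over all genes. The anterior homeobox gene ceh-32 (1.69 ± 0.26, edgeR adjusted p = 0.00219), the epidermal GATA factor gene elt-3 (1.23 ± 0.22, 0.00416) and nhr-25 (1.15 ± 0.24, 0.00864) were higher and ceh-36 was lower (-1.71 ± 0.36, 0.00838). In mex-5 RNAi 4 rose and 8 fell, with elt-3 higher (2.31 ± 0.23, adjusted p = 1.93e-05) and ceh-32 (-2.81 ± 0.29, 2.65e-05), ceh-36 (-3.30 ± 0.44, 1.46e-04) and tbx-38 (-3.30 ± 0.51, 3.59e-04), a T-box gene of the anterior blastomere, lower. Over all genes, 18.4% were called higher and 12.5% lower in mex-5 RNAi. Between the groups ceh-32 differed by 4.50 ± 0.31 (edgeR adjusted p = 1.15e-06), higher in pos-1 RNAi.

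Tails could be tested for 2 members, ceh-51 and pha-4, and for the skn-1 feature, because a value in all 12 libraries was needed. limma called no tail of these 3 in any of the 9 comparisons. Over all genes tested, 0.0183% were called in pos-1 RNAi, 0.0183% in gld-3 RNAi, 0.238% in gld-2 RNAi, 0.402% in mex-5 RNAi and 0% in mex-6(pk440), and between groups 0.274% in pos-1 against gld-3 RNAi, 0.841% in pos-1 against mex-5 RNAi, 0.567% in gld-3 against gld-2 RNAi and 0.0731% in mex-5 RNAi against mex-6(pk440). Among ceh-51 and pha-4 no comparison had an unadjusted p under 0.05, and the alternatives with log2 tails, centring and weights called 0 as well. For the skn-1 feature the unadjusted limma p was 0.00724 in gld-3 against gld-2 RNAi (adjusted p = 0.252).

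The ceh-51 tail was 68.0 and 57.5 nt in N2, 65.0 and 57.6 in pos-1 RNAi, 63.5 and 64.7 in gld-3 RNAi, 60.6 and 55.9 in gld-2 RNAi, 59.1 and 54.6 in mex-5 RNAi and 61.3 and 55.7 in mex-6(pk440). Every group overlaps N2, whose 2 libraries lie far apart. In mex-5 RNAi, where its reads fell, the tail difference was -5.94 ± 3.77 nt (SE, limma adjusted p = 0.483). The pha-4 tail was 49.3 and 38.6 nt in N2 and 64.4 and 44.3 in mex-5 RNAi, a difference of 10.4 ± 5.85 nt (limma adjusted p = 0.421), and ran from 42.0 to 55.4 nt in the other 8 libraries.

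The skn-1 feature had short tails, 39.7 and 35.9 nt in N2. Both gld-2 RNAi libraries had its longest tails of the 12, 41.8 and 43.4 nt, and both gld-3 RNAi libraries its shortest, 34.4 and 33.7 nt, while the other 6 libraries ran from 36.2 to 39.1 nt. The difference of gld-3 from gld-2 RNAi was -8.54 ± 2.63 nt (limma adjusted p = 0.252), and against N2 it was 4.77 ± 2.63 nt in gld-2 RNAi (0.386) and -3.77 ± 2.63 nt in gld-3 RNAi (0.494), so none was called.

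For the gut genes tail values exist in part, and end-3 had none in N2 even at 27 and 13 reads. None was given in pos-1 RNAi for end-1, elt-7 or elt-2. The elt-7 tail ran from 33.0 to 63.8 nt over the 10 libraries that had one, and the end-1 tail from 39.5 to 62.5 nt over 9. The med-2 tail was 21.9 and 25.7 nt in N2, 24.3 and 27.6 in gld-3 RNAi, 41.6 and 44.4 in gld-2 RNAi and 28.3 and 34.4 in mex-6(pk440), with 34.9 in 1 pos-1 RNAi library. Its gld-2 RNAi values lie above the others and were not tested. The gene had 15 and 11 reads in those libraries, and the number of them behind each mean tail was not used here. Neither med-1 nor tbx-35 had a tail value.

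**Figure D4:**
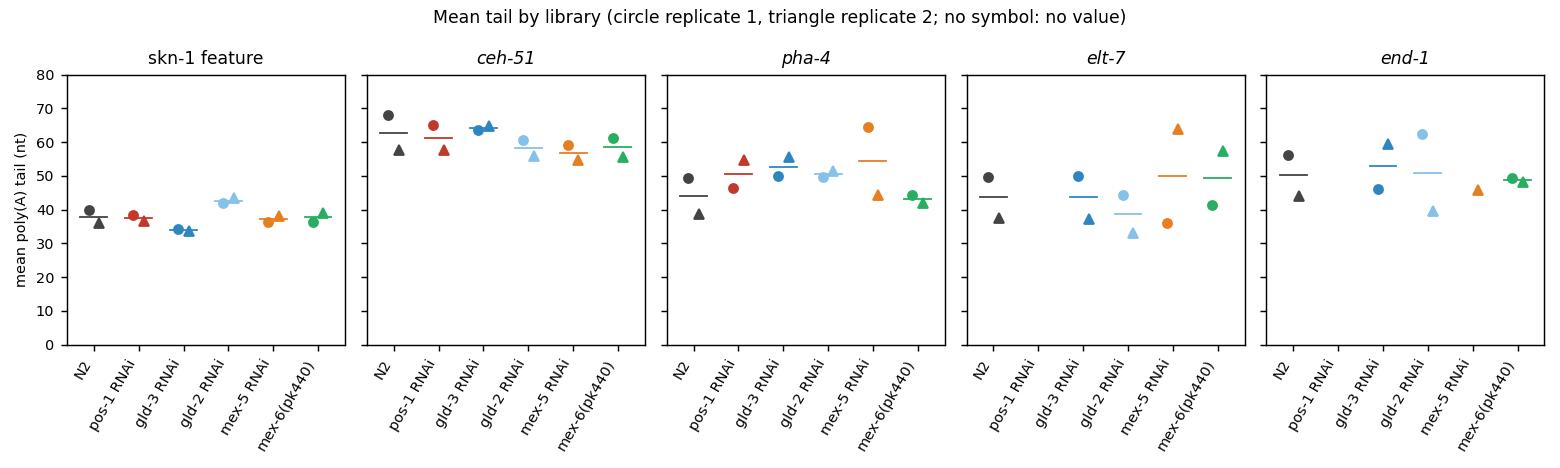
Mean poly(A) tail in nt by library for the skn-1 feature, ceh-51, pha-4, elt-7 and end-1, on a linear axis from 0. Circles are replicate 1, triangles replicate 2, lines the mean of both, and a missing symbol means no value. The skn-1 feature is longest in gld-2 RNAi at 41.8 and 43.4 nt, and elt-7 and end-1 have no value in pos-1 RNAi.

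Only pha-4 and the skn-1 feature had more than 1 poly(A) peak. The upstream peak of pha-4 lies inside the annotated gene, 766 bp before its end (20758833 to 20758933 on chromosome V, ce10), and the downstream peak 585 bp past the end (20760184 to 20760284). The upstream peak took 42.8% (exact 95% binomial interval 35.8% to 49.9%) and 49.6% (40.7% to 58.5%) of the reads of both peaks in N2. In mex-5 RNAi it took 29.2% in both libraries, with intervals of 17.0% to 44.1% (14 of 48 reads) and 12.6% to 51.1% (7 of 24) that overlap those of N2. Over the other groups the share ran from 31.4% to 56.7%. In all 10 libraries with both tails the downstream peak had the longer mean tail, by 2.84 to 23.7 nt. For the skn-1 feature, the peak 629 bp past the annotated end took 91.9% to 97.8% of the peak reads.

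Across the 12 libraries, the likeness of levels in log2 CPM is given as a description of points that share 6 groups and their depth. Among the gut genes Pearson's r was 0.87 between end-1 and elt-7, 0.86 between elt-7 and elt-2, 0.70 between end-1 and end-3, 0.64 for end-1 with elt-2 and end-3 with elt-7, and 0.59 between end-3 and elt-2. For ceh-51 it was 0.83 with end-1, 0.79 with elt-7, 0.66 with end-3 and 0.52 with elt-2, and pha-4 had 0.15 or less with each gut gene. Among 6584 genes, the most similar to end-1 were dve-1 (r = 0.97), ugt-1 (0.96) and M153.1 (0.94), and to elt-7 C10C5.3 (0.94), ugt-53 (0.94) and dve-1 (0.93). For ceh-51 they were F14H12.6 (0.91), wht-1 (0.87) and acs-3 (0.86), and for pha-4 F54F7.6 (0.96), Y47D3A.13 (0.95) and fbxb-54 (0.95). The genes most like med-2 were M01G5.3 (0.85), pho-5 (0.83) and mrps-34 (0.83), and those most like the skn-1 feature R10E4.11 (0.95), hpo-5 (0.94) and hil-5 (0.93).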

How the data were processed

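For each gene and each poly(A) peak the authors deposited counts of reads, whole numbers without normalization, and the mean tail in nt. Per the submitters' processing notes, Bowtie2 2.2.2 and the ce10 build were used, and per the file headers peaks came from nesoni. The sources used here do not say how tails were computed. Positions of genes and peaks are the deposited values in bp. All 10 gene names matched the reference table.

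The members and gene lists were chosen with earlier results of these data known. All 10 members are named, and up to 4 genes of each other list with the smallest p in a comparison. Counts were fitted in R 4.3.3 with edgeR 4.0.16 (filterByExpr, TMM, quasi-likelihood F test) over all 12 libraries with 1 coefficient per group, ribosomal RNA included. Tails of 5471 genes were fitted with limma 3.58.1, with a trend on log2 reads, needing at least 10 reads per library. All p-values are two-sided and adjusted by Benjamini-Hochberg over all genes of a comparison, with a threshold of 0.05. The SE is that of the log2 change or of the tail difference. Log2 CPM used a prior count of 2. Scripts were tested on simulated data. Columns of the mex-6 samples carry an RNAi label where the sample titles give the allele, and the titles were followed.

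The spread between replicates exceeded counting error (chi-square over its degrees of freedom 13.7 to 44.2). The alternatives run were a fit of only the 4 libraries compared, DESeq2 1.42.0, a replicate block, RLE factors, leaving out single libraries, keeping genes of low count, mex-6(pk440) in place of N2, and for tails 50 reads, weights, centring and log2.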

Additional observations from a re-analysis of the deposited data

How the results depend on the processing

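Of the 5 members called in pos-1 RNAi against N2, 3 were called in the fit of 4 libraries, without pos-1 RNAi replicate 2 and against mex-6(pk440) in place of N2, and 3 to 4 with a library left out. For pos-1 against gld-3 RNAi 3 calls became 1 with 4 libraries alone, and for pos-1 against mex-5 RNAi 4 became 2 to 4 with a library left out. For gld-3 against gld-2 RNAi 1 became 0 with 4 libraries and 0 to 1 with a library left out, and for mex-5 RNAi against mex-6(pk440) 2 became 4 without a low-count filter. The differences between replicates 1 and 2 in log2 CPM correlated between groups by -0.15 to 0.46 (median 0.20). Whether replicates of the same number share a batch was not tested. The replicate block gave 1 call in place of 0 against N2 in gld-3 RNAi (elt-2, also called without the filter) and in gld-2 RNAi (ceh-51, also called against mex-6(pk440)), and 3 in place of 2 for mex-5 RNAi against mex-6(pk440). It raised the genes called against N2 from 1148 to 1503 in pos-1 RNAi and from 760 to 1206 in gld-3 RNAi. In gld-2 RNAi they rose from 2553 to 3134, in mex-5 RNAi from 2900 to 3307 and in mex-6(pk440) from 2 to 44.

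Signs that reversed all belonged to uncalled changes. Against mex-6(pk440) in place of N2, end-3 was 0.15 in gld-3 RNAi, end-1 -0.10 and elt-2 0.50 in gld-2 RNAi, and elt-2 0.040 in mex-5 RNAi. With a library left out the log2 change against N2 ran from -0.046 to 0.23 for skn-1 in pos-1 RNAi, from -0.40 to 0.11 for skn-1 and -2.06 to 0.20 for end-3 in gld-3 RNAi, and from -0.91 to 0.12 for end-1 in mex-5 RNAi. In mex-6(pk440) it ran from -0.27 to 0.16 for skn-1, -0.79 to 0.77 for med-2 and -0.066 to 0.44 for elt-7. The cause of these changes was not tested.

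Over all genes, calls against N2 ranged over the alternatives from 355 (without pos-1 RNAi replicate 2) to 1549 (no filter) for pos-1 RNAi, beside 1148. For gld-3 RNAi they ranged from 48 (against mex-6(pk440)) to 1279 (no filter), beside 760, and for mex-5 RNAi from 1855 to 3307, beside 2900. For gld-2 RNAi they ranged from 1183 to 3134, beside 2553, and for mex-6(pk440) from 1 to 172, beside 2. No alternative called a tail of ceh-51 or pha-4. At 40 reads or fewer per library, med-1, med-2, end-3, elt-2 and tbx-35 are limited by depth.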
